A study of Homo sapiens with 8 samples.

Results

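H3K4me3 at the promoters of protein-coding genes was compared between HL-60 cells treated with all-trans retinoic acid (ATRA) and control cells. The comparison used 4 of the 8 ChIP-seq libraries of the series, which were 2 of cells given 1 µM ATRA and 2 of cells given ethanol, the solvent of ATRA, each for 4 days with fresh medium and agent at day 2. HL-60 is an established human leukemia cell line, so all libraries came from a single line without normal granulocytes or donors beside it. The other 4 libraries held H3K27ac from the same groups and are used here only as a second readout. For each of 20098 protein-coding genes, the width of H3K4me3 was the summed length of the peaks that lay within 500 bp of the transcription start site (TSS). A gene was kept where both ATRA libraries lay on the same side of both controls, which held for 5113 genes out of 11154 with a peak in at least 1 library. The remaining 8944 genes had no peak there in any library.

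H3K4me3 is the trimethylation of lysine 4 on histone H3, and its peaks sit on the promoters of genes that are transcribed or poised. At strongly used promoters and at genes that define a cell type, the marked stretch often runs from the promoter into the gene body, so the width of a peak carries information that its presence does not. In HL-60 cells ATRA acts through the retinoic acid receptors RARA and RXRA, and the promyelocyte-like cells cease dividing and take on features of granulocytes. Neutrophil granulocytes carry adhesion molecules, chemoattractant receptors and an enzyme complex, the NADPH oxidase, which makes superoxide against microbes.

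A promoter was called gained where both ATRA libraries had a peak and neither control had one, and lost in the reverse case. It was called partly gained where 1 control also had a peak that was narrower than both ATRA peaks, and partly lost in the reverse case. Where all 4 libraries had a peak, a promoter was called widened if both ATRA widths exceeded both control widths and narrowed in the reverse case. The gap ratio was the smaller width of the wider condition divided by the larger width of the other condition, so a gap ratio of 1.5 leaves 1.5-fold between the closest libraries. With 2 libraries against 2, no exact two-sided permutation p can fall below 0.33, and the classes are therefore descriptions of these 4 libraries without a test. The sources used here do not say that the replicates came from separate cultures, so the spread between them may be technical.

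Of the 20098 genes, 62 were gained (0.308%) and 20 were lost (0.0995%). A further 71 were partly gained (0.353%) and 14 partly lost (0.0697%). Among 10536 genes with a peak in all 4 libraries, 4452 were widened (42.3%), 494 were narrowed (4.69%) and 5590 were not separated. At a gap ratio of 1.5 or more, 220 were widened (2.09%) and 25 narrowed (0.237%). The last 451 genes had a peak in some libraries without such an order. The counts rested on having all 4 libraries. Without control replicate 1 there were 234 gained and 8122 widened promoters, 1402 of the latter at a gap ratio of 1.5. Without control replicate 2 there were 137 lost, 94 partly lost and 2751 narrowed promoters, 191 of the last at a gap ratio of 1.5. Without ATRA replicate 1 there were 47 lost and 1373 narrowed, with 541 widened and 84 narrowed at that ratio, and without ATRA replicate 2 there were 116 gained, 135 partly gained, 33 lost and 1107 narrowed, with 525 and 49 at that ratio. A peak list cannot tell fewer marked cells from a shorter mark in each cell.

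The sequences just upstream of 6 of these start sites are printed because they carry the main classes: 3 gained promoters whose ATRA peaks touched no control peak (CEACAM1, SLC2A5 and CYBB), the widened promoter of ITGAM, the lost promoter of TRAT1 and the narrowed promoter of GATA2. Each is the stretch of 250 bases before the TSS, read 5′ to 3′ along the gene from GRCh37, with matches to 7 searched motifs in capitals on either strand. The motif of the ETS factor PU.1 was written GAGGAAGT, that of the C/EBP factors TTGCNNAA, and that of the GATA factors AGATAA. The letters TGTGGT stood for RUNX factors and AGGTCA for the half-site of nuclear receptors, and the other two motifs were CCAAT and TATAAA. No motif is contained in another, and a capital stretch marks matching letters and is not a measured binding site.
CEACAM1 (chr19:43032634-43032883, minus strand): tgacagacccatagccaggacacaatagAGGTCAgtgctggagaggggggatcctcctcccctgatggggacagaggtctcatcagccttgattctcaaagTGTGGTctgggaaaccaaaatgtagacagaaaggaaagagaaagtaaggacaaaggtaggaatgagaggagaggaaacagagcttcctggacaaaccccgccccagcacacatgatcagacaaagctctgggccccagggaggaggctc
SLC2A5 (chr1:9129695-9129944, minus strand): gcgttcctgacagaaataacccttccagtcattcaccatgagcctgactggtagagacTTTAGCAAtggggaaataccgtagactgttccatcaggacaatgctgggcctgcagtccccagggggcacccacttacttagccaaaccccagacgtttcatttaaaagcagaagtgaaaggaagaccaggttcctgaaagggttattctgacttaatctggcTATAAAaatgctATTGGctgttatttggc
CYBB (chrX:37639062-37639311, plus strand): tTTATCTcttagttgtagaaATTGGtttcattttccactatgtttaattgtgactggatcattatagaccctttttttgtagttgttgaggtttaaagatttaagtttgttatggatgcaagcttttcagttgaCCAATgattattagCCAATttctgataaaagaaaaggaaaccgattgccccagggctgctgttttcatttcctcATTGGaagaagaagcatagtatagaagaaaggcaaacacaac
ITGAM (chr16:31271046-31271295, plus strand): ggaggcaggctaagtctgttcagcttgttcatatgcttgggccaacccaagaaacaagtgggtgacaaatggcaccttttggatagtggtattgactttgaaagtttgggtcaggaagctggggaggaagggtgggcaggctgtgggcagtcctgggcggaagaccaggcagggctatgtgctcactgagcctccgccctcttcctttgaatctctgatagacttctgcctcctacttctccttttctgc
TRAT1 (chr3:108541383-108541632, plus strand): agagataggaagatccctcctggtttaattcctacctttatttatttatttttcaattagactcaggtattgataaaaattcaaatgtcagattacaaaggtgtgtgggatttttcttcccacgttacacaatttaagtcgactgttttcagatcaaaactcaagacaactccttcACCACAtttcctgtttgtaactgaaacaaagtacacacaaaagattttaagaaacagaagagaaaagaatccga
GATA2 (chr3:128212045-128212294, minus strand): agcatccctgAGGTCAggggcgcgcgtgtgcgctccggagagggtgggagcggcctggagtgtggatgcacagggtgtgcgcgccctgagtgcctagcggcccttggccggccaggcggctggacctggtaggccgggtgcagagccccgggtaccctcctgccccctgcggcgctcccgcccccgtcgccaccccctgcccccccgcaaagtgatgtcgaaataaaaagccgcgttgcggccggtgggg

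The GATA2 stretch is CpG-rich, with 24 CpG dinucleotides, whereas the gained, widened and lost ones shown held between 1 (CEACAM1, CYBB) and 3 (SLC2A5, TRAT1). These stretches are single examples and did not all match the median of their class. The median was 3 CpG per 250 bases over the 62 gained promoters and 3.5 over the 20 lost ones, 19 over the 220 promoters widened and 18 over the 25 narrowed at a gap ratio of 1.5, and 23 over the 10536 marked in all 4 libraries. All 20098 promoters had a median of 18 and the 8944 promoters without a peak a median of 7. GAGGAAGT occurred in 5 of the 62 gained promoters (8.06%), in 5 of the 71 partly gained (7.04%), in 15 of the 220 widened at a gap ratio of 1.5 (6.82%) and in 413 of all 20098 (2.05%). TTGCNNAA occurred in 7 gained promoters (11.3%) against 7.11% of all, TGTGGT in 12 (19.4%) against 8.94%, AGGTCA in 12 (19.4%) against 9.99%, and AGATAA in 8 (12.9%) against 6.62%. The other upward classes did not all share this. In the same order of motifs, the partly gained promoters had 11.3%, 15.5%, 8.45% and 7.04%. The 220 widened at a gap ratio of 1.5 had 6.36%, 9.09%, 6.36% and 6.36%. In the 8944 promoters without a peak, which were CpG-poor as well, the shares were 9.07% for the C/EBP, 11.2% for the RUNX, 12.9% for the nuclear receptor and 10.04% for the GATA motif. Of the 20 lost promoters, 6 (30%) held the RUNX letters. CCAAT was found in 32.3% of the gained and 34.2% of all promoters, and TATAAA in 9.68% and 9.42%. None of the 7 motifs was found in the printed stretch of ITGAM, which says only that these letters are not in this window.

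The number of marked promoters was close between conditions. A peak lay at 10933 and 10852 promoters in ATRA replicates 1 and 2 and at 10998 and 10607 in control replicates 1 and 2, a difference of 90 between the condition means with an exact two-sided permutation p of 1.0. The conditions overlapped in this count, and without control replicate 2 the difference turned to -105.5. Control replicate 2 stood apart with 13241 peaks, against 16160 to 16487 in the other 3 libraries. The number of reads behind the peaks is unknown.

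The cell type labels were looked up in marker genes. Of 8 promyelocyte markers, 5 had a peak in all 4 libraries, among them MPO, CEBPA and SPI1, and PRTN3 had one at its main TSS only in the ATRA libraries, with control peaks 2347 bp or more away, while ELANE and AZU1, which encode neutrophil elastase and azurocidin, had none. All 5 T cell markers found, and the hepatocyte, fibroblast and neuron markers, were without a peak at the main TSS. Of the 5 B cell markers only CD79A, and of the 7 erythroid markers only KLF1, had a peak in some libraries, without an order between conditions. Of the 6 monocyte or macrophage markers, CSF1R was gained and CD14, CD163, MRC1, MARCO and CD68 had no peak.

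Over the promoters marked in all 4 libraries, the median width was 5654 bp and 5648 bp in the ATRA libraries and 5298 bp and 4576 bp in the controls. The condition means were 5651 ± 3.89 bp and 4937 ± 511 bp (SD, n = 2), a difference of 714 bp or 0.19 on the log2 scale, with an exact two-sided permutation p of 0.33, the smallest that the design allows. Both ATRA medians lay above both control medians. Within replicate number 1 the log2 difference was 0.09 and within number 2 it was 0.30. Without control replicate 2 the difference of the means was 353 bp. When each library was scaled to the same median, 1894 promoters were widened (18.0%) and 2637 narrowed (25.0%), so the balance of the 2 classes turned over with the scaling. A promoter called widened or narrowed by a small margin is therefore not read here as a change of its own. The counts at a gap ratio of 1.5 became 121 widened and 46 narrowed. The gained and lost classes stayed at 62 and 20 because scaling cannot make or remove a peak.

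**Figure D1:**
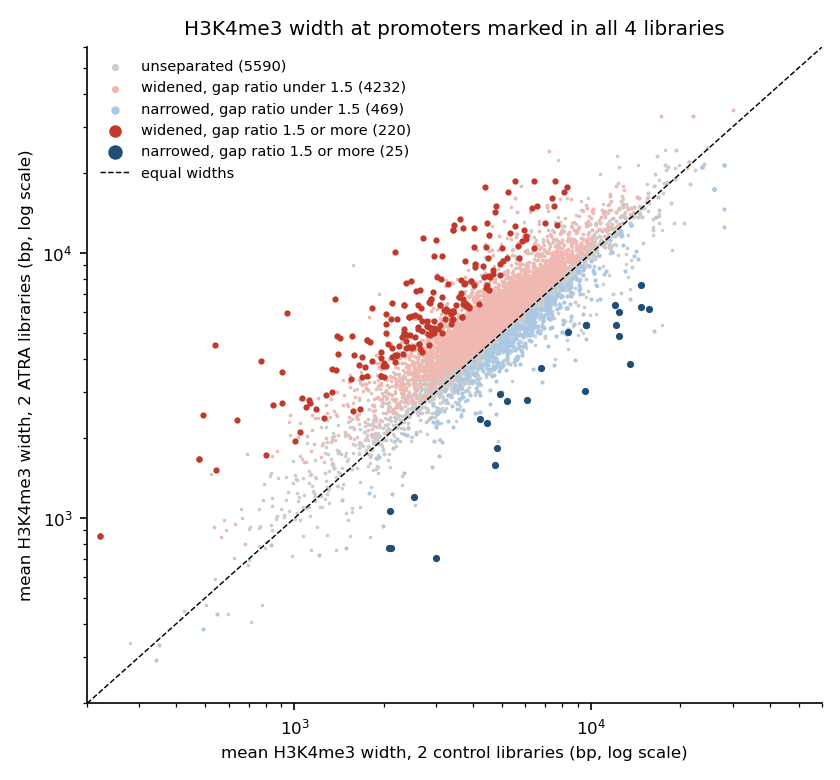
Mean H3K4me3 width at each of the 10536 promoters marked in all 4 libraries, with the 2 control libraries on the x axis and the 2 ATRA libraries on the y axis, both in bp on log scales. Each point is a gene colored by class, and more points lie above the dashed line of equal widths than below it, with 220 widened and 25 narrowed points at a gap ratio of 1.5 or more.

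The replicates set the scale for single promoters. The median absolute log2 difference between the ATRA replicates was 0.15 and that between the control replicates 0.23. The replicates of 1 condition lay 1.5-fold or more apart at 789 promoters in ATRA-treated and at 1659 in control cells. Just inside the threshold for widened promoters was PIM1, a serine/threonine kinase, with 7302 and 5081 bp in ATRA against 3383 and 1946 bp in control cells, and just outside was SAYSD1 with 3053 and 3463 against 2037 and 1539 bp. On the narrowed side VIM, the intermediate filament vimentin, was just inside with 3109 and 2794 against 5180 and 4680 bp, and IRX3, a homeobox factor, just outside with 2419 and 2549 against 4303 and 3817 bp.

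Gained promoters were of 2 kinds. At 41 of the 62 genes, the ATRA peaks touched no control peak, and at 40 of these the nearest control peak lay more than 5000 bp from the TSS. At the other 21 genes the ATRA peak within the window touched a control peak that lay outside it, at a median distance of 847 bp from the TSS. The smaller of both ATRA widths had a median of 1595 bp in the first kind and 2849 bp in the second. Of the 20 lost promoters, 16 touched no ATRA peak. The class depended on the window: 49 of the 62 gained and 17 of the 20 lost promoters kept their class when peaks within 1000 bp of the TSS were counted, and 33 and 12 kept it when a peak had to cover the TSS base itself.

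The 10 gained promoters with the widest ATRA peaks included both kinds. CEACAM1, an adhesion receptor of the carcinoembryonic antigen family (chromosome 19, TSS 43032633), had widths of 7198 and 6348 bp in the ATRA libraries and no peak in either control within 104053 bp. SLC2A5, the fructose transporter GLUT5 (chromosome 1, TSS 9129694), had 6062 and 10296 bp and no control peak. LILRA5, an activating receptor of the leukocyte immunoglobulin-like receptor family (chromosome 19, TSS 54824436), had 9384 and 6005 bp and no control peak. In these 3 genes the nearest control peak lay at least 21991 bp from the TSS.

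SEMA6B, a transmembrane semaphorin (chromosome 19, TSS 4559696), had 7309 and 6187 bp in ATRA-treated cells at its main TSS, with the nearest control peak 17883 bp away. It was only partly gained when any of its coding start sites was counted, since control replicate 1 then had 1051 bp. ITGB7, the beta 7 integrin subunit of lymphocyte and leukocyte homing (chromosome 12, TSS 53601035), had 8483 and 7002 bp, and control replicate 1 had a peak 847 bp from the TSS. DHRS9, a short-chain dehydrogenase that oxidizes retinol (chromosome 2, TSS 169926073), had 7851 and 6472 bp, and within 5000 bp control replicate 1 had 403 bp. These genes were marked weakly or at another start site in control cells, while the TSS itself lay under an ATRA peak in both replicates.

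At the last 4 of the 10, a neighboring marked stretch had reached the window, and only at ENSG00000269711 did it cover the TSS base in both ATRA libraries. AL590714.1 (chromosome 1, TSS 161190160) had 7555 and 6797 bp, the same ATRA peaks as those over FCER1G, the shared gamma chain of Fc receptors, which was itself widened. ENSG00000269711 (chromosome 19, TSS 7743387) had 7354 and 6848 bp, the widths also found at MCEMP1, a mast cell-expressed membrane protein, which was partly gained. PRSS16, a thymic serine protease (chromosome 6, TSS 27215480), had 6885 and 8708 bp, but within 5000 bp of its TSS the controls also had 4348 and 3986 bp. ENSG00000268533 (chromosome 19, TSS 57905551) had 6274 and 8569 bp, and within 5000 bp the controls had 3988 and 4002 bp. For AL590714.1, PRSS16 and ENSG00000268533 the gain was a shift of a peak edge across the window rather than a new peak. No library had H3K27ac at these genes. At ENSG00000269711 the ATRA peaks ran across the TSS and touched up to 2 peaks of a control library. Its H3K27ac was 7065 and 11044 bp in the ATRA libraries and absent in both controls.

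**Figure D2:**
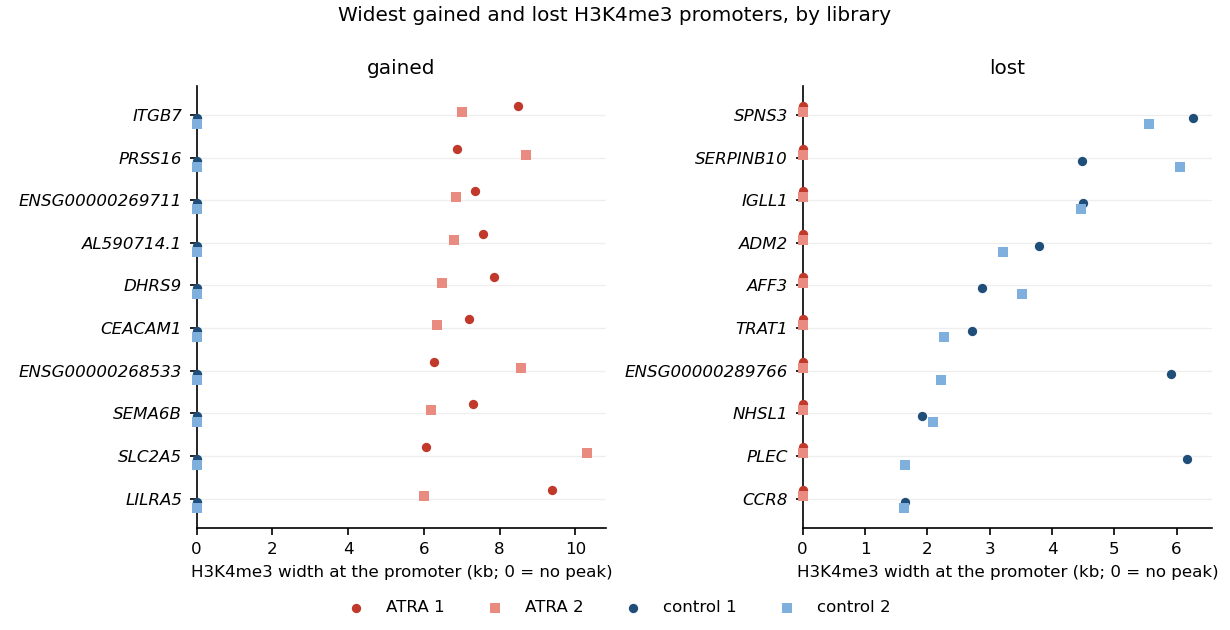
Summed H3K4me3 peak width within reach of the TSS, in kb on the x axis, for the 10 gained (left) and 10 lost (right) promoters with the widest peaks, with each library as its own point and 0 meaning no peak. By definition the 2 controls of gained genes and the 2 ATRA libraries of lost genes lie at 0, and the gained peaks range from 6005 to 10296 bp.

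A further 4 gained promoters outside the naming rule were chosen after their values were seen. S100A8 and S100A9, which together form the calcium-binding protein calprotectin of neutrophil cytosol, had 3755 and 1715 bp and 5359 and 3683 bp in the ATRA libraries and no control peak. CFP, the complement regulator properdin, had 2858 and 2337 bp and no control peak. SELP, the adhesion molecule P-selectin, had 5485 and 3083 bp and no control peak. All 4 of these promoters also had H3K27ac in both ATRA libraries and in neither control.

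The partly gained class rested on 1 library. The control without a peak was control replicate 2 at 68 of the 71 genes and control replicate 1 at 3, and control replicate 2 was also the library with the fewest peaks. With the 13241 longest peaks kept in every library there were 61 partly gained promoters in place of 71. Among the 14 partly lost promoters, ATRA replicate 2 lacked the peak at 11 and ATRA replicate 1 at 3.

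The widest lost promoter was SPNS3, of the spinster family of lipid transporters (chromosome 17, TSS 4337235), with 6254 and 5556 bp in the controls and no ATRA peak within 63905 bp. SERPINB10, a serpin of bone marrow cells also called bomapin (chromosome 18, TSS 61575192), had 4489 and 6054 bp in control and no peak in ATRA-treated cells. IGLL1, a surrogate light chain of the pre-B cell receptor (chromosome 22, TSS 23922477), had 4502 and 4465 bp, and ATRA replicate 2 kept 970 bp within 5000 bp of the TSS. These 3 promoters had H3K27ac in both control libraries, and of the ATRA libraries only replicate 2 at SERPINB10 had it.

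ADM2, a peptide of the calcitonin family (chromosome 22, TSS 50919972), had 3784 and 3220 bp in the controls. AFF3, a nuclear protein of the AF4 family (chromosome 2, TSS 100759052), had 2883 and 3524 bp. TRAT1, a transmembrane adaptor of the T cell receptor (chromosome 3, TSS 108541633), had 2716 and 2268 bp. None of these had an ATRA peak within the window, and the nearest one was 3947 bp away at ADM2 and 70546 bp or more away at the other 2 genes. CCR8, a chemokine receptor (chromosome 3, TSS 39371200), had 1638 and 1620 bp in control and none in ATRA-treated cells. At NHSL1 (chromosome 6, TSS 138820631), with 1912 and 2086 bp, and PLEC, the cytolinker plectin (chromosome 8, TSS 145013765), with 6164 and 1649 bp, only the main TSS lost its peak. Both genes were not separated when any of their coding start sites was counted. ENSG00000289766 (chromosome 12, TSS 13256418) had 5911 and 2222 bp from peaks that began over 350 bp downstream of its TSS, and it was not separated when peaks within 1000 bp were counted.

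**Figure D3:**
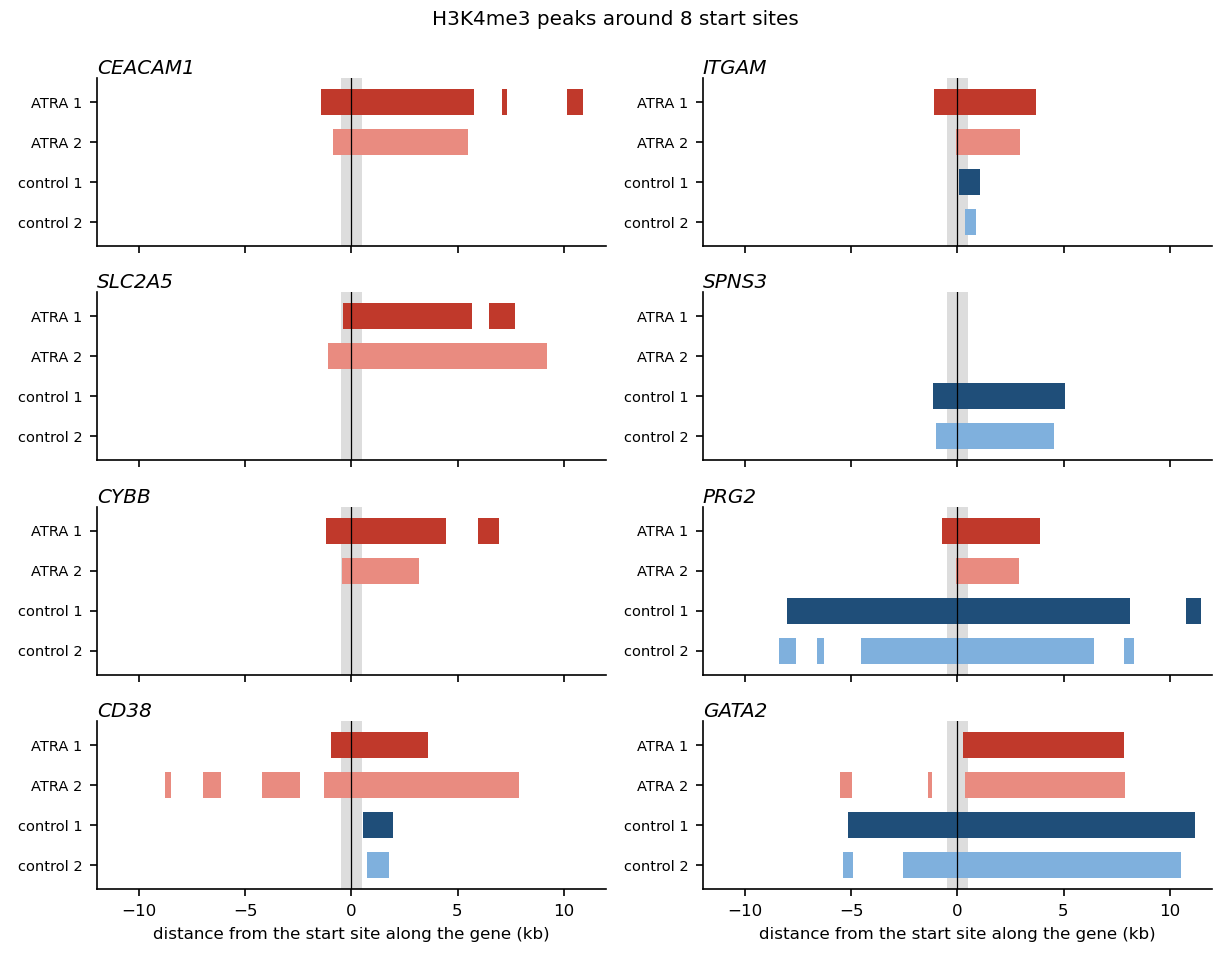
H3K4me3 peaks of the 4 libraries within 12 kb of the start sites of 8 genes, drawn as distance from the TSS along the gene in kb, with the window of 500 bp on either side in gray. CEACAM1, SLC2A5 and CYBB have peaks in both ATRA libraries and none in control, CD38 has control peaks that begin 561 and 728 bp downstream, SPNS3 has peaks in both controls only, and PRG2 and GATA2 are narrower in both ATRA libraries.

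The largest gap ratio of all widened promoters was that of RGS1, a regulator that switches off G protein signaling of chemokine receptors (chromosome 1, TSS 192544903). Its widths were 4792 and 4243 bp with ATRA against 682 and 399 bp in the controls, a gap ratio of 6.22, and the control peaks lay downstream of the TSS base. GNG2, a G protein gamma subunit, had 10224 and 9915 bp against 2062 and 2301 bp, a gap ratio of 4.31. The H3K27ac of GNG2 was 9491 and 11399 bp in the ATRA libraries and absent in both controls. That of RGS1 had no order between conditions, with 0 and 2442 against 0 and 1338 bp.

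CASS4, a scaffold protein of focal adhesions, had 7228 and 4709 bp in ATRA-treated against 1288 and 595 bp in control cells (gap ratio 3.66), and CASP1, the caspase that processes interleukin 1 beta, had 3041 and 1849 against 552 and 431 bp (gap ratio 3.35). GHRL, the ghrelin precursor, had 6859 and 6577 against 2118 and 618 bp (gap ratio 3.11). H3K27ac was longer in both ATRA libraries at CASS4 and GHRL. At CASP1 it had no order, with 451 and 3358 against 0 and 3847 bp. In RGS1, GNG2, CASS4, CASP1 and GHRL it was not the case that both ATRA libraries had peaks spanning 2 or more control peaks.

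The other 5 of the 10 widened promoters lay under ATRA peaks that each spanned 2 or more control peaks. They were FLAD1, the FAD synthase, with 15693 and 19918 bp against 4602 and 4202 bp (gap ratio 3.41) under ATRA peaks that also covered the partly gained SHC1, and IFFO1, an intermediate filament relative, with 11683 and 11083 against 3468 and 1944 bp (gap ratio 3.20). MEN1, the scaffold protein menin of H3K4 methyltransferase complexes, had 13577 and 12053 against 3812 and 3107 bp (gap ratio 3.16). Within 5000 bp of its TSS, MEN1 differed less, with 6676 and 5957 against 4770 and 4700 bp under peaks. SCPEP1, a serine carboxypeptidase, had 9849 and 9722 against 3165 and 2737 bp (gap ratio 3.07), and CARS2, the mitochondrial cysteinyl-tRNA synthetase, had 16904 and 17077 against 5558 and 4961 bp (gap ratio 3.04). Over all 220 widened promoters, 80 (36.4%) were of this joined kind.

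**Figure D4:**
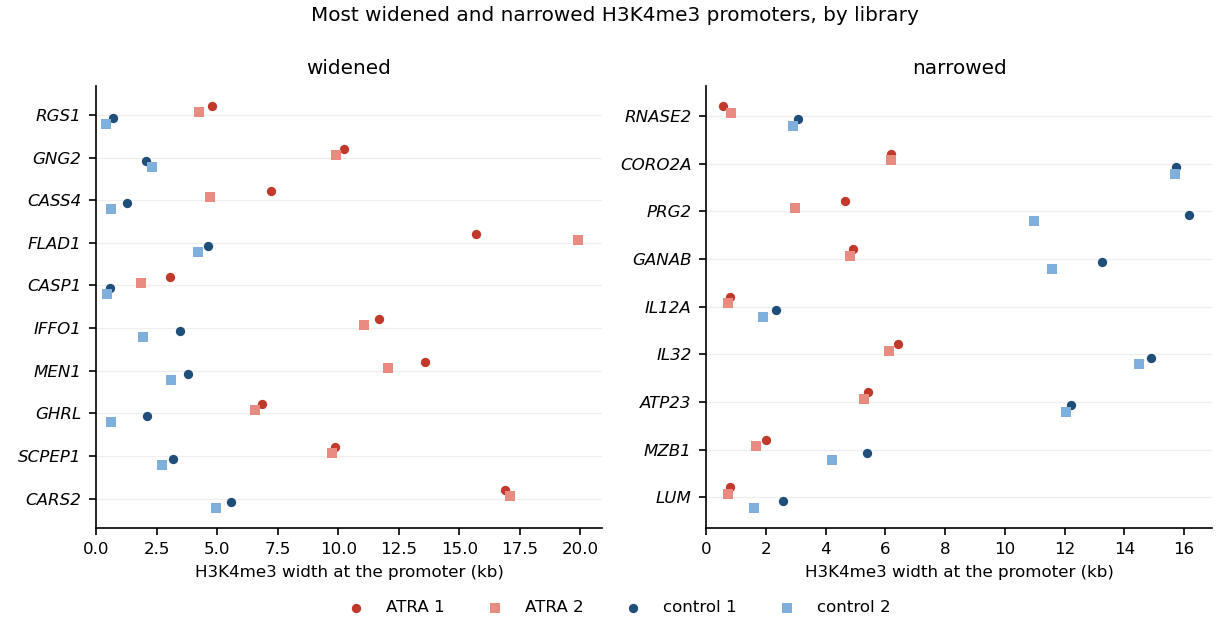
Summed H3K4me3 peak width in kb on the x axis for the 10 widened promoters (left) and 9 of the 10 narrowed promoters (right) with the largest gap ratios, with each library as its own point. By the rule the ATRA and control points do not overlap, and the gap ratios run from 3.04 to 6.22 on the left and from 2.00 to 3.44 on the right.

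Widening ran more into the gene than away from it. Over the 220 widened promoters, the upstream edge of the marked stretch lay a median of 961 bp from the TSS in control and 1809 bp in ATRA-treated cells, and the downstream edge 1840.5 bp and 3704 bp. The downstream edge moved further than the upstream edge at 169 of them (76.8%), against 54.2% of the 5590 promoters that were not separated. Over all 4452 widened promoters the share was 60.3%, closer to that of the promoters that were not separated. The 220 widened promoters had a median width of 2844 bp in control cells, against the 5102 bp of the promoters that were not separated. The gap ratio selects on these widths, so the rule itself favors a small control width. At the 25 narrowed promoters the distance of the downstream edge from the TSS decreased by 1730.5 bp in the median and that of the upstream edge decreased by 714 bp. Their median width was 6786.5 bp in control and 3007 bp in ATRA-treated cells, which are again widths that the gap ratio selects on.

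RNASE2, the eosinophil-derived neurotoxin (chromosome 14, TSS 21423646), had the largest gap ratio of the narrowed promoters, with 573 and 847 bp with ATRA against 3079 and 2914 bp in the controls (gap ratio 3.44). PRG2, the major basic protein of eosinophil granules, had 4649 and 2967 against 16157 and 10977 bp (gap ratio 2.36). The H3K27ac of PRG2 was 0 and 729 bp in the ATRA libraries and 10386 and 13224 bp in the controls. That of RNASE2 had no order between conditions, with 439 and 9545 against 0 and 8802 bp. Other eosinophil genes were looked up after these values were seen. IL5RA, the interleukin 5 receptor, was narrowed at its main TSS with 2393 and 776 against 4906 and 4613 bp, but not separated over any of its coding start sites. EPX, the eosinophil peroxidase, was partly lost, with 7933 and 5667 bp in control and 0 and 1476 bp in ATRA-treated cells. CLC, the Charcot-Leyden crystal protein galectin-10, was not separated, with 6188 and 5949 against 6344 and 5679 bp, and narrowed only after scaling, and CCR3, the eotaxin receptor, was gained with 2140 and 2837 bp. The eosinophil genes thus did not all lie on 1 side.

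Of the remaining narrowed promoters, IL12A, the p35 subunit of interleukin 12, had 811 and 733 against 2325 and 1904 bp (gap ratio 2.35). MZB1, an endoplasmic reticulum protein of B cells, had 1991 and 1675 against 5399 and 4216 bp (gap ratio 2.12), and its ATRA peaks began downstream of the TSS base. LUM, the proteoglycan lumican, had 805 and 733 against 2564 and 1606 bp (gap ratio 2.00).

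At 4 promoters the narrowing lay mostly away from the TSS, where a control peak joined a neighboring peak that was separate in ATRA-treated cells. CORO2A, an actin-binding coronin, had 6184 and 6182 against 15727 and 15700 bp (gap ratio 2.54), but within 5000 bp it had 6493 and 6772 against 7385 and 7470 bp under peaks. GANAB, the glucosidase II alpha subunit, had 4909 and 4810 against 13250 and 11589 bp. IL32, a cytokine of lymphocytes, had 6434 and 6127 against 14903 and 14488 bp. ATP23, a mitochondrial metalloprotease, had 5430 and 5291 against 12215 and 12061 bp. The gap ratios of the last 3 were 2.36, 2.25 and 2.22. H3K27ac at IL32 went the other way, with 5115 and 3571 bp in the ATRA libraries against 3021 and 2216 bp in the controls. Peaks that spanned 2 or more ATRA peaks were found in both control libraries at 12 of the 25 narrowed promoters (48.0%).

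Among the regulators and targets that the study names, GATA2, a zinc finger factor of blood stem and progenitor cells (chromosome 3, TSS 128212044), was narrowed. Its widths were 7596 and 7560 bp with ATRA against 16334 and 13119 bp in the controls, a mean of 7578 ± 25.5 against 14727 ± 2273 bp (SD, n = 2) and a gap ratio of 1.73. The control peaks ran from 5155 and 2590 bp upstream of the TSS, whereas the ATRA peaks began 276 and 348 bp downstream of it. The TSS base itself was therefore under a peak in both controls and in neither ATRA library. H3K27ac at the GATA2 promoter was 7577 and 6858 bp in the controls and absent in both ATRA libraries.

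ZBTB16, the zinc finger repressor PLZF (chromosome 11, TSS 113930433), was narrowed with 3127 and 4180 against 6150 and 6577 bp, a gap ratio of 1.47 that was 1.57 after scaling. CD38, an ectoenzyme of NAD metabolism that ATRA induces in HL-60 cells (chromosome 4, TSS 15779951), was gained with 4547 and 9190 bp in the ATRA libraries. Both controls had a peak of 1409 and 1022 bp that began 561 and 728 bp downstream of the CD38 TSS, so with a window of 1000 bp it was widened instead. Its H3K27ac was 5255 and 14028 bp in ATRA-treated cells and absent in both controls.

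RXRA, the retinoid X receptor alpha (chromosome 9, TSS 137218301), was narrowed by a small margin with 1726 and 1716 against 3803 and 2333 bp, a gap ratio of 1.35 that was 1.67 after scaling. It was not separated with a window of 1000 bp, and within 5000 bp of the TSS it had 3516 and 3230 against 3803 and 2333 bp, where the conditions overlapped and the ATRA mean was 305 bp higher. RARA, the retinoic acid receptor alpha (chromosome 17, TSS 38465432), had no peak at its main TSS. Over any of its coding start sites RARA was widened with 13750 and 10259 against 8941 and 5228 bp, and its main TSS had H3K27ac of 29639 and 3635 bp in the ATRA libraries and none in the controls. RUNX3, a Runt domain factor (chromosome 1, TSS 25256767), had 7521 and 7562 against 7496 and 5062 bp and was not separated after scaling. SPI1, which encodes PU.1 (chromosome 11, TSS 47400098), was not separated with 12808 and 9247 against 9515 and 8093 bp. Its H3K27ac was longer in both ATRA libraries, with 27788 and 29056 against 5650 and 6030 bp. That of RUNX3 was 949 and 3686 bp in the ATRA libraries and absent in both controls. RXRA had no H3K27ac in any library, and ZBTB16 had it only in control replicate 2, with 3200 bp.

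Genes of granulocyte functions were counted in lists. For each list, upward means gained, partly gained or widened at a gap ratio of 1.5, which held for 1.76% of all 20098 genes, and downward means lost, partly lost or narrowed at that ratio, which held for 0.294%. The partly gained and partly lost genes entered without a gap ratio, and each of these calls rested on 1 library without a peak. At 68 of the 71 partly gained genes that library was control replicate 2. Genes in a cluster can share peaks and are not independent, and no list was tested.

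**Figure D5:**
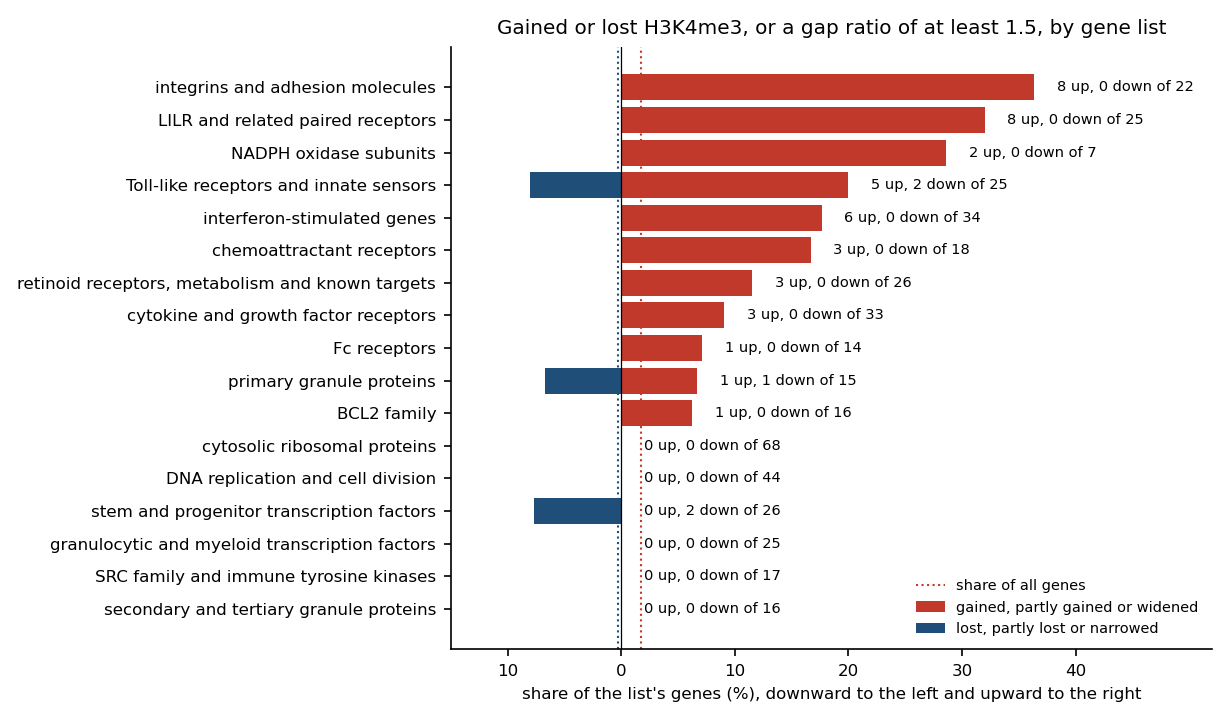
Share of the genes of each of 17 functional lists that were gained, partly gained or widened at a gap ratio of at least 1.5 (red, to the right) or lost, partly lost or narrowed at that ratio (blue, to the left), in percent, with the counts printed beside the bars. The dotted lines mark the shares of all protein-coding genes, 1.76% upward and 0.294% downward, and the longest bar is that of integrins and adhesion molecules, 8 of 22 (7 after scaling).

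Integrins and adhesion molecules had 8 upward of 22 (7 after scaling, without ICAM1), none downward, and a median log2 width ratio of 0.38 over the members marked in all 4 libraries, against 0.17 over all such genes. ITGAM, the CD11b subunit of the integrin Mac-1, had 4818 and 3013 bp with ATRA against 1004 and 534 bp in the controls (gap ratio 3.0), and the control peaks lay downstream of the TSS base. ITGB2, its CD18 partner, had 16222 and 8622 against 4732 and 2694 bp (gap ratio 1.82). ITGAX, the CD11c subunit, was gained with 1942 and 954 bp. CEACAM4, a granulocyte adhesion receptor, was gained with 3092 and 1702 bp, beside CEACAM1 and ITGB7 above. ICAM1, the ligand of these integrins, was widened with 6558 and 3471 against 2182 and 1882 bp (gap ratio 1.59). The partners of ITGB7 and ITGB2 did not all follow: ITGA4 was narrowed by a small margin with 8694 and 8882 against 11006 and 10326 bp, and ITGAL, with 6225 and 3790 against 6124 and 5262 bp, was narrowed only after scaling.

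Of the 25 LILR and related paired receptors, which activate or restrain myeloid cells, 8 were upward and none was downward. LILRB2, an inhibitory receptor, was partly gained with 5634 and 3368 against 1206 and 0 bp, and LILRA1 with 1164 and 1098 against 321 and 0 bp. CD300A and CD300C, of the CD300 receptor family, were partly gained with 9071 and 4382 against 1007 and 0 bp and with 6116 and 3057 against 363 and 0 bp. Their neighbors CD300LB and CD300LF were widened, with 15102 and 13623 against 5115 and 4369 bp (gap ratio 2.66) and with 9153 and 8514 against 4365 and 3773 bp (gap ratio 1.95). SIRPB1, a signal regulatory protein that signals through TYROBP, had 5926 and 6862 against 2323 and 2353 bp (gap ratio 2.52). With LILRA5, these receptors lie in clusters on chromosomes 17, 19 and 20, and 11 of the 25 genes had no peak in any library.

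The NADPH oxidase list had 2 upward of 7 and none downward. CYBB, the catalytic gp91phox subunit, was gained with 5667 and 3605 bp and had no control peak within 65172 bp. The other membrane subunit CYBA was not separated, with 4520 and 2745 against 3370 and 2325 bp. RAC1 and RAC2, the GTPases of the complex, were widened by gap ratios of 1.04 and 1.11 and were not separated after scaling.

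Chemoattractant receptors had 3 upward of 18 and none downward. CCR1 was widened with 6276 and 6159 against 2188 and 1475 bp (gap ratio 2.81), and its chemokine receptor neighbor CCR3 was gained, with the values given above. The formyl peptide receptors FPR1, FPR2 and FPR3 had no peak in any library. Of the 14 Fc receptor genes only FCER1G was upward, with 7555 and 6797 against 3438 and 1687 bp (gap ratio 1.98), and 11 had no peak.

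Toll-like receptors and innate sensors went both ways, with 5 upward and 2 downward of 25, and 4 and 2 after scaling. TLR1, which senses bacterial lipopeptides, was gained at its main TSS with 2443 and 1478 bp but not separated over any of its coding start sites, and CLEC4E, the lectin Mincle, with 2295 and 257 bp. TLR3, the sensor of double-stranded RNA, was partly gained with 1644 and 1732 against 545 and 0 bp, and the inflammasome sensor NLRC4 with 5168 and 4382 against 1102 and 0 bp. NLRP3, another inflammasome sensor, was widened with 5820 and 5259 against 2267 and 3102 bp, a gap ratio of 1.70 that was 1.37 after scaling. TLR9, the sensor of CpG DNA, was lost from 3318 and 1312 bp, and LY96, the MD-2 partner of TLR4, from 892 and 460 bp.

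Interferon-stimulated genes had 6 upward of 34 (5 after scaling, without IFIT3) and none downward, with a median log2 width ratio of 0.38 over the members marked in all 4 libraries. MX2, an antiviral GTPase, was widened with 3966 and 4162 against 1744 and 1632 bp (gap ratio 2.27). IFI35 and IFIT3 were widened at gap ratios of 2.06 and 1.55. OAS3, which activates the antiviral RNase L, and GBP2, a guanylate-binding protein, were gained with 1158 and 636 bp and with 780 and 558 bp. In 12 of the 34 genes no peak was found.

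Cytokine and growth factor receptors had 3 upward of 33. CSF1R, the receptor of the macrophage growth factor, was gained with 1510 and 801 bp, while IL4R and TNFRSF1B, receptors of interleukin 4 and tumor necrosis factor, were widened at gap ratios of 1.75 and 1.63. CSF3R, the receptor of the granulocyte growth factor, was widened by less, with 4955 and 4372 against 3889 and 3127 bp. In the retinoid list, 3 of 26 were upward. Beside CD38 these were DHRS3, a retinal reductase, with 7355 and 5666 against 2492 and 1770 bp (gap ratio 2.27), and HIC1, a zinc finger repressor, partly gained with 7603 and 6544 against 1705 and 0 bp. The retinoid-degrading enzymes CYP26A1, CYP26B1 and CYP26C1 had no peak.

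Among 16 BCL2 family genes only BCL2A1, an anti-apoptotic member of myeloid cells, was upward, with 8235 and 7163 against 2735 and 2025 bp (gap ratio 2.62). BCL2 itself was narrowed with 6243 and 7210 against 10950 and 10519 bp at a gap ratio of 1.46, and its ratio passed 1.5 after scaling.

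Primary granule proteins, which are made at the promyelocyte stage, had 1 upward and 1 downward of 15. PRTN3, proteinase 3, was gained with 614 and 4897 bp, though both controls had a peak within 5000 bp. Over any of its coding start sites PRTN3 was widened. The downward one was RNASE2, which was counted in this list although it is the eosinophil-derived neurotoxin described above. MPO, the myeloperoxidase, had nearly equal widths of 15914 and 16557 against 16849 and 16627 bp. None of the 16 secondary and tertiary granule genes, such as LTF (lactoferrin) and MMP9 (a gelatinase), had a peak at its main TSS in any library.

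Stem and progenitor transcription factors were the list with downward genes and none upward, 2 of 26 (3 after scaling), with a median log2 width ratio of -0.18. Beside GATA2 this was GATA1, the erythroid and eosinophil GATA factor, partly lost with 2064 and 0 bp in ATRA-treated against 2286 and 2253 bp in control cells. MYB, which sustains progenitor growth, was narrowed with 10837 and 9545 against 15251 and 13030 bp (gap ratio 1.20), and IKZF2, an Ikaros family factor, with 8420 and 8286 against 11406 and 10725 bp (gap ratio 1.27). MYC was not separated, with 10307 and 11555 against 11177 and 10355 bp, and narrowed only after scaling.

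Of the lists with peaks, 4 had no gene past these limits in either direction. Among the 25 granulocytic and myeloid factors the largest gap ratios were those of IRF1 (1.44) and CEBPB (1.38), and among the 17 SRC family and immune tyrosine kinases those of LYN (1.43) and BTK (1.17). FGR, a SRC family kinase of myeloid cells, had no peak at its main TSS but was gained over any of its coding start sites, with 11082 and 6867 bp, and its main TSS had H3K27ac of 16278 and 23961 bp in the ATRA libraries only. Of the 44 replication and cell division genes 29 were not separated, and the largest gap ratios were those of CCNB2 (1.42) and MCM6 (1.20). Of the 68 cytosolic ribosomal protein genes 50 were not separated, and the largest were RPL38 and RPS9 at 1.22 each. The median log2 width ratios were 0.07 over the replication list and 0.02 over the ribosomal list, below the 0.17 of all promoters marked in all 4 libraries, and after scaling 21 replication and 34 ribosomal genes were narrowed.

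H3K27ac, which marks active promoters and enhancers and was not used to form the classes, differed along with them only in part. The H3K27ac libraries were uneven, with 28200 and 39332 peaks in ATRA-treated and 15457 and 29616 in control cells, so the share over all genes is given beside each count. H3K27ac was present in both ATRA libraries and in neither control at 22 of the 62 gained promoters (35.5%), at 8 of the 71 partly gained (11.3%), at 23 of the 220 widened at a gap ratio of 1.5 (10.5%) and at 2.56% of all genes. It was present in both controls and in neither ATRA library at 4 of the 20 lost promoters (20%) and 1 of the 14 partly lost (7.14%). The same held at 2 of the 25 narrowed at a gap ratio of 1.5 (8.0%) and at 0.338% of all genes. Over all 494 narrowed promoters, H3K27ac was lost in this way at 9 (1.82%) and gained at 8 (1.62%). It was longer in both ATRA libraries than in both controls at 110 of them (22.3%) and shorter at 50 (10.1%). Over all genes these shares were 17.1% and 2.26%, but that base holds the 8944 promoters without an H3K4me3 peak, at 1.84% and 0.123%. Over the 5590 promoters that were not separated, the shares were 28.6% longer and 4.47% shorter. The narrowed promoters thus had H3K27ac longer less often and shorter more often than those. Among the partly lost promoters it was longer at 3 and shorter at 1. None of the gained promoters lost H3K27ac and none of the lost promoters gained it by these rules. With shares of 0.338% and 2.56% over all genes, such absences say little for classes of 62 and 20 genes. Of the 22 gained promoters with new H3K27ac, 20 were among the 41 without a touching control peak. At 14 gained promoters no library had H3K27ac, and 10 of them were among the 21 whose ATRA peaks touched a control peak.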

How the data were processed

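Per the labels and the study's methods, the authors used cutadapt for adapters, Bowtie for alignment against hg19, and MACS2 to call broad peaks, library by library. Versions are not given in the sources used here. From the deposited peak files only the positions (columns 1 to 3, 0-based starts) were used. The deposited score, fold and −log10 p and q columns were not used. Read counts were not analysed here, so depth and counting intervals are unknown. Genes came from GENCODE release 44 on GRCh37 (chromosomes 1 to 22 and X). The main TSS was that of the MANE Select or canonical transcript, or the gene's 5′ end for 619 genes without one. Peaks counted from 1 bp of overlap. Scaled widths equalized the library medians. Named genes were the 10 with the widest peaks (gained, lost) or largest gap ratios (widened, narrowed), the genes the study names, and list members past those limits, or else the 2 with the largest gap ratios. Some of these genes are counted but not reported here. Members and lists were chosen with earlier results of these data known. Libraries with the same replicate number were not treated as pairs. Python 3.11.15, numpy 2.4.6, pandas 2.3.3, scipy 1.17.1 and matplotlib 3.10.9 were used.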

Additional observations from a re-analysis of the deposited data

How the results depend on the processing

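Alternatives were another TSS, window, overlap, width measure, scaling, peak length and number, and fewer libraries. Scaling gave 1894 widened, 2637 narrowed, 121 widened at gap ratio 1.5 and 46 narrowed at it. Covering 50% of the window gave 107 partly gained, covered length within 5000 bp gave 14 narrowed at gap ratio 1.5, peaks of at least 1000 bp gave 9 partly lost, and equal peak numbers gave 36 lost. The next 3 alternatives were chosen after seeing the data. Calls in bp and after scaling together left 1894 widened and 121 at gap ratio 1.5. Gained promoters touching no control peak numbered 41, and those with at least 1000 bp in both ATRA libraries 40. The same-numbered libraries' deviations had a Pearson correlation of 0.19 across promoters, which gives no pairing by itself, and a replicate block gave 879 narrowed, 22 partly lost and 340 widened at gap ratio 1.5. Leaving out 1 library at a time loosens the rule and gave 65 to 234 gained, 25 to 137 lost, 106 to 135 partly gained, 17 to 94 partly lost, 4960 to 8122 widened, 719 to 2751 narrowed, and at gap ratio 1.5 319 to 1402 widened and 31 to 191 narrowed, the highest of each without a control library except for partly gained (without ATRA replicate 2). The difference in promoters with a peak ran from -105.5 (without control replicate 2) to 285.5 (without control replicate 1), and that in median width from 353 to 1075 bp with the same pair of libraries. The difference of the RXRA means turned to 305 bp within 5000 bp. The unknown depth limits every absence of a peak.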
